A study of Mus musculus with 8 samples.

Results

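Fragments of 4 kinds of small structural RNA, BC1, 7SL, 7SK and the Y RNAs, were followed in the small RNA of mouse testes. The members were all entries of a pooled sequence list whose annotation began with BC1, 7SLRNA, 7SK, or HY and a digit, at every length from 15 to 36 nt. There were 3731 such sequences of 6246223 in the list (0.0597%), under 5 names: BC1_Mm with 1471, 7SLRNA with 1024, 7SK with 518, HY1 with 396 and HY3 with 322. For Tdrd6, which encodes a Tudor-domain protein of germ cells, the libraries came from testes of 1 heterozygous and 1 homozygous knockout group at each of 3 ages (18 days, 25 days and 6 weeks old). For Tdrd1, which encodes a related protein, both knockout genotypes were taken from fetuses of 18.5 dpc, and each of the 8 groups had 1 library. The strain and the alleles are not given in the sources used here. RNA of 19 to 33 nt had been selected in all of them. No sequence in the list was tied to a library or to a number of reads, so the genotypes and ages were not compared, sequencing depth was unknown, and every count below is a count of distinct sequences and not of RNA abundance. There were no replicates and no test was run. Intervals in brackets are exact 95% binomial intervals, which cover counting error only.

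All of these RNAs are made by RNA polymerase III, which stops at a run of T in the DNA, and none codes for protein. 7SL is the RNA scaffold of the signal recognition particle, which directs ribosomes that make secreted and membrane proteins to the endoplasmic reticulum. 7SK holds the transcription elongation factor P-TEFb in an inactive particle together with HEXIM and LARP7. Y RNAs are short hairpins that bind the Ro60 and La proteins and are known to be cut into stable fragments. BC1 is a rodent RNA of neurons, also found in male germ cells, which arose from an alanine transfer RNA. Copies of 7SL gave rise to the B1 SINEs of rodents, and BC1 is the source of the ID SINEs, so fragments of these 2 RNAs can resemble those repeats. The other abundant small RNAs of testis are piRNAs, which guide Piwi proteins, are mostly of 24 to 33 nt and mostly begin with U, written as T here.

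The RNA genes of the mouse were taken from the GENCODE M21 annotation of GRCm38. They were Rny1 of 112 nt (chr6:47788069-47788180, minus strand) for HY1, Rny3 of 102 nt (chr6:47781624-47781725, plus strand) for HY3, Rn7sk of 331 nt (chr9:78175303-78175633, minus strand) for 7SK and Bc1 of 168 nt (chr7:144914470-144914637, plus strand) for BC1. For 7SL there were 2 genes of 300 nt with identical sequences, Rn7s1 (chr12:69159295-69159594, plus strand) and Rn7s2 (chr12:69361182-69361481, minus strand). All are annotated as noncoding RNA genes, so no fragment in them is in a coding region or a UTR. The authors' build is not given in the sources used here, and a sequence was placed in a gene only by an exact match over its whole length.

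Both Y RNAs are shown whole, 5′ to 3′, because they are short enough to see each named fragment in the RNA. Capitals mark the longest fragment of the 5′ end with most distinct sequences and, at the 3′ side, the longest fragment of the commonest 5′ end beyond position 50. The 3′ fragments were chosen after their values were seen.
Rny1: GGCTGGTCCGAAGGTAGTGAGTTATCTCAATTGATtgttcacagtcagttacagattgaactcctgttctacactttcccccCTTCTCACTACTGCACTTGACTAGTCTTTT
Rny3: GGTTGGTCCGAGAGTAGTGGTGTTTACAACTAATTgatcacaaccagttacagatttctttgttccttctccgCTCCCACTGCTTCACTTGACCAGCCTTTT

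Bc1 is shown with the stretches that also occur in sequences of the list annotated as ID in capitals (15 or more identical bases). The fragment of Bc1 named by the rule is its first 27 bases. For 7SK the first 100 bases are shown, with the named fragment of positions 2 to 29 in capitals.
Bc1: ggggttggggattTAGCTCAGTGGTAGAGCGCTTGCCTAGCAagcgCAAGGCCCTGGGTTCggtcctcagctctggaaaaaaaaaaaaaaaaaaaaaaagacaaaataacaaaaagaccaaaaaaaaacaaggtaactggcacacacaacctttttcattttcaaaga
Rn7sk start: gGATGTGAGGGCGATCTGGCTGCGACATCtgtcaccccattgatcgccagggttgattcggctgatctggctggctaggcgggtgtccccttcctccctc

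The 5 names differed in how much of their list matched the RNA gene they are named for. A match does not give the origin of a sequence, since many also map elsewhere. The 7SK sequences in Rn7sk mapped to a median of 5 positions and up to 32. Of the 7SL sequences in the gene, 17.9% mapped to 2 positions only. Of the HY3 sequences, 311 of 322 lay in Rny3 on the sense strand (96.6%, 94.0 to 98.3). Of the HY1 sequences, 326 of 396 lay in Rny1 (82.3%, 78.2 to 86.0). Of the 7SL sequences, 834 of 1024 lay in the 7SL gene (81.4%, 78.9 to 83.8), and of the 7SK sequences 303 of 518 in Rn7sk (58.5%, 54.1 to 62.8). BC1 stood at the other end, with 33 of 1471 in Bc1 on the sense strand (2.24%, 1.55 to 3.14) and 9 more on the antisense strand. For BC1, therefore, the annotation collected almost only sequences that are not Bc1 itself.

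Matched sequences of the other RNAs lay on the strand of the RNA, with 1 exception. No HY1, HY3 or 7SL sequence was antisense to its gene, which at 3 counts allows a share of up to 0.758%, 0.932% and 0.293% of each list, and 1 of the 7SK sequences was antisense. Antisense fragments made up 9 of the 42 BC1 sequences found in Bc1. Of these, 6 lay within the first 75 bases and mapped to 152 to 581 positions, so they need not come from Bc1. The other 3 mapped to 1 position.

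Lengths also set BC1 apart from the Y RNAs. The share of 24 to 33 nt was 72.6% (70.2 to 74.9) for BC1, 61.8% (57.4 to 65.98) for 7SK, 58.3% (55.2 to 61.3) for 7SL, 55.9% (50.3 to 61.4) for HY3 and 48.2% (43.2 to 53.3) for HY1. The intervals of BC1 overlapped with none of the others, while those of 7SK, 7SL and HY3 overlapped with each other. The Y RNAs had the largest share of 19 to 23 nt, 31.99% for HY3 and 31.6% for HY1, against 14.1% for BC1. The commonest length was 26 nt for BC1, 7SL, 7SK and HY1 and 27 nt for HY3. BC1 had 216 sequences of 26 nt, 28 of 19 nt and again 59 of 15 nt, and 400 of its 1471 were of 15 to 23 nt, whereas HY1 had 18 to 31 sequences at every length from 18 to 28 nt.

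**Figure D1:**
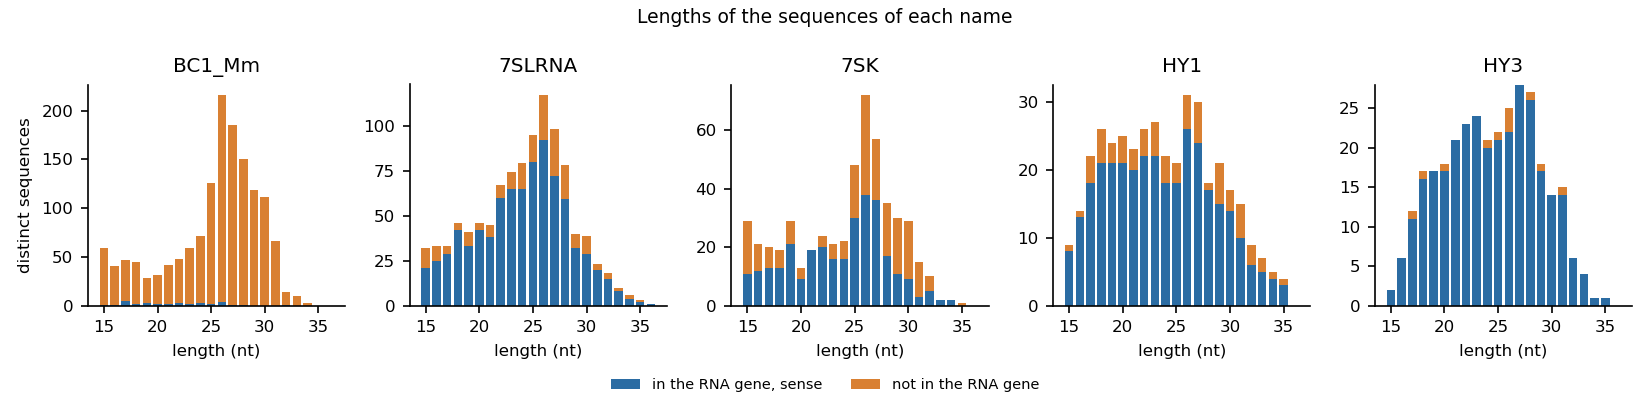
Number of distinct sequences (y axis) of each length in nt (x axis) for the 5 names, with the scale of each panel its own; blue bars count sequences that match the RNA gene on the sense strand and orange bars, stacked on them, all others. BC1 is almost all orange with a peak at 26 nt, HY3 almost all blue, and 7SK holds both colours, with 303 sequences in blue.

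Sequences named HY1 and HY3 covered both Y RNA genes throughout, most deeply near the 5′ end in Rny1 and in 3 parts in Rny3. In Rny1, 198 of 326 sequences started in the first 40 nt (60.7%, 55.2 to 66.1) and 118 ended in the last 40 nt (36.2%, 31.0 to 41.7). The number of sequences over a position reached 158 at position 18 and was at its lowest inside the RNA, 5, at position 75. In Rny3, 173 of 311 started in the first 40 nt (55.6%, 49.9 to 61.2) and 146 ended in the last 40 nt (46.9%, 41.3 to 52.7). The depth in Rny3 had its highest value of 104 at position 84, but was also 101 at position 50 in the middle of the RNA, and its lowest inside value was 33, at position 67. The bottom of the profile thus lay past the middle in both RNAs, in the stretch between the middle and the 3′ fragment, and was deeper in Rny1. These shares are set beside the length of the genes, of which 40 nt are 35.7% in Rny1 and 39.2% in Rny3. Length is a low baseline for them, here and in the genes below. A fragment cannot start at the last bases of a gene or end at its first ones. The share among all possible fragments is therefore higher than that of the length and was not computed. No excess or lack at either end is read from these shares.

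The first base of both RNAs was their most used 5′ end. At position 1, 21 distinct sequences started in Rny1 and 21 in Rny3, that is 1 at each length from 15 to 35 nt. None was of 36 nt, the longest length in the list. On the 3′ side, 13 sequences of Rny1 started at position 83 and 13 at position 84, and 13 sequences of Rny3 started at position 74. At the other end, 19, 19 and 18 sequences of Rny1 stopped at positions 110, 111 and 112, within the closing run of 4 T. In Rny3 16, 16 and 16 stopped at positions 99, 100 and 101 and 6 at the last base, 102. The last bases of a Y RNA are the T run to which the La protein binds.

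A few HY1 sequences ran further than the gene. Of the 70 HY1 sequences not found in Rny1, 18 ended in a longer T run, of 5 or 6 T where the gene has 4, and no HY3 sequence did. Of the same 70, 18 matched Rny1 in all but their last base, which was T in 11, A in 6 and G in 1. These sets can overlap, since a sequence that ends in 5 T at the end of the gene meets both rules. Whether the added bases are in the genome was not tested, since no genome was used. A Y1-like gene, Gm26168 (chr6:122623547-122623658, plus strand, a noncoding RNA gene of 112 nt with 92.7% identity to Rny1 over 110 aligned columns), held 11 of the 70, all mapping to 1 position. Another 121 sequences fit both genes, so their source cannot be told apart.

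Sequences that match the Y RNA genes also carried other names. Of 360 sequences of the list found in Rny3, 38 were annotated RLTR13D1, a long terminal repeat, all between positions 10 and 49 and mapping to 3 to 10 positions. With every annotation counted, the share that started in the first 40 nt was 59.4% in Rny3 and 60.1% in Rny1, within the intervals above. The name HY3 thus leaves out part of the sequences that match the 5′ side of its RNA. The depth along Rny3 given above counts HY3-named sequences only, and falls to 51 at position 32, within the stretch of the RLTR13D1 sequences. Depth under every name was not computed, so the 3 parts of Rny3 cannot be told apart from an effect of the naming.

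**Figure D2:**
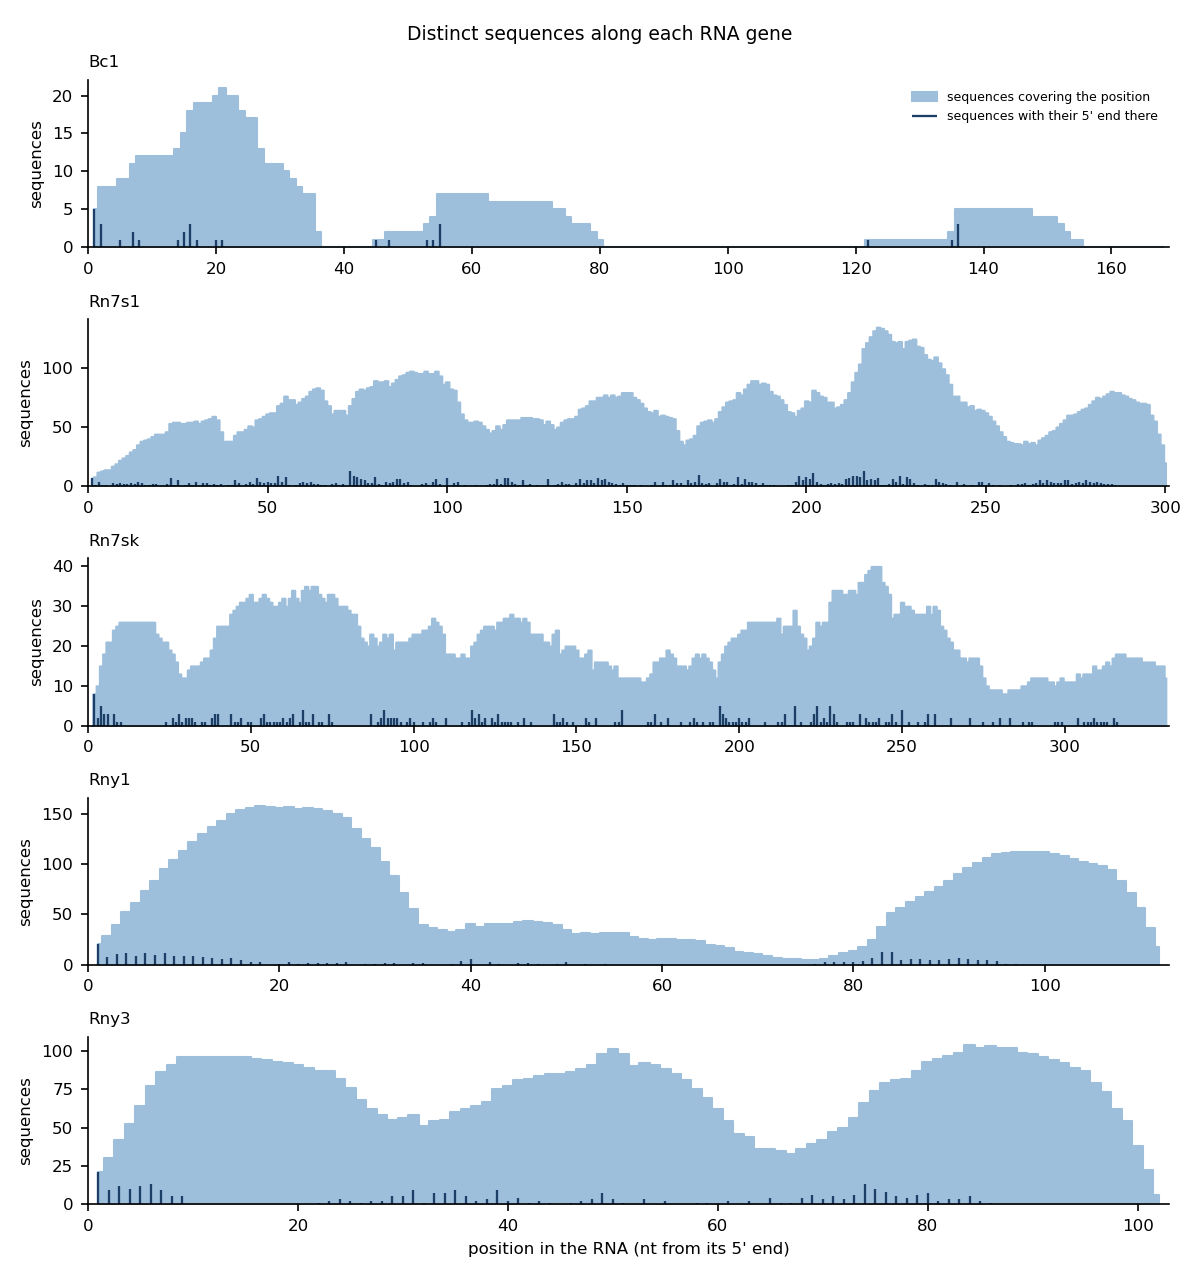
Number of distinct sequences (y axis) that cover each position (light area) or have their 5′ end there (dark lines) along Bc1, Rn7s1, Rn7sk, Rny1 and Rny3 (x axis, nt from the 5′ end), each panel with its own scales and only with sequences under the RNA's own name. Rny1 is highest near its 5′ end with a low point of 5 at position 75, Rny3 also has a high middle, Rn7s1 and Rn7sk are covered throughout, and Bc1 has 3 separate parts.

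7SL was covered along its whole length. All 300 positions held at least 1 sequence, with a median of 65 over a position and the highest value, 134, at position 220. Of the 834 sequences, 82 started in the first 40 nt (9.83%, 7.90 to 12.1) and 118 ended in the last 40 (14.1%, 11.9 to 16.7), where 40 nt are 13.3% of the gene. Neither share lay above that of the length beyond its interval. The most used 5′ ends were at positions 73 and 216, with 13 sequences each, followed by position 202 with 11. The fragment named by the rule, the longest of the first of these, covered positions 73 to 104 and so crossed position 79, where the first stretch shared with B1 ends.

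The 3′ end of 7SL ran past the annotated gene. The 2 annotated miRNA entries that overlap the ends of the 7SL genes, Gm47295 and Gm47299, extend them by 2 and 3 bases. With these bases added, 36 further 7SL sequences matched, which brought the share to 85.0%. Of all sequences that matched, 20 stopped at position 300, 20 at position 301 and 16 at position 302, and none at 303. This is a ragged end over the T run, like those of the Y RNAs. Among the 190 sequences not in the annotated gene, 40 matched it in all but their last base, and that base was T in 38. These 40 include the 20 that stopped at position 301, which run past the annotated end and match the extended gene.

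Every 7SL sequence in the gene mapped to at least 2 positions, as 2 identical genes require, with a median of 3 and a highest value of 22. The parts shared with B1 were positions 1 to 79 and 261 to 297, together 116 of 300 bases, which leaves the middle of 7SL, the part that B1 lacks. Of all 7SL sequences, 290 of 1024 (28.3%, 25.6 to 31.2) held a stretch of 15 bases found in B1-annotated sequences on the same strand. In comparison, HY3 had 16.8% (12.9 to 21.3) with such a stretch, 7SK 3.47% and HY1 none of 396. The B1-annotated sequences include some that lie in these RNA genes themselves. The only B1 stretch of Rny3, positions 85 to 100, is where 2 sequences named B1F lie. That of Rn7sk, positions 317 to 331, is where 1 sequence named B1_Mur1 lies. The shares of HY3 and 7SK thus depend on how a few sequences were named. In the reverse complement of B1 sequences the shares were 12.9% for 7SL, 14.9% for HY3, 3.09% for 7SK and 0 for HY1. At 18 bases on the same strand the share was 10.7% for 7SL and 0 for HY3, 7SK and HY1. Of the sequences in the gene, 178 lay wholly inside the B1-like parts and mapped to a median of 5 positions, and 496 lay wholly outside and mapped to a median of 3. T was the first base of 20.2% (14.6 to 26.9) of the former and 24.2% (20.5 to 28.2) of the latter, so these parts did not differ beyond their intervals. Another 54 sequences of the gene were listed under other names, most often B1_Mus2 (19, within positions 1 to 34) and B1F (12, within positions 17 to 64).

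7SK sequences were of 2 kinds. The 303 in Rn7sk covered 330 of its 331 positions, all but the first, with a median of 21 sequences and the highest value of 40 at position 241. The most used 5′ end was position 2, with 8 sequences of 21 to 28 nt, and the most used 3′ end was the last base, 331, with 12. Of these sequences 51 started in the first 40 nt (16.8%, 12.8 to 21.5) and 29 ended in the last 40 (9.57%, 6.50 to 13.5), where 40 nt are 12.1% of the gene. At the first positions the list also held 8 sequences under the name Lx2, a LINE name, between positions 1 and 31.

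The first base differed between 7SK sequences inside and outside Rn7sk. Among those of 24 to 33 nt, T was first in 79 of 167 inside (47.3%, 39.5 to 55.2) and in 127 of 153 outside (83.0%, 76.1 to 88.6). With each 5′ end counted once, these were 36.4% (27.4 to 46.3) of 107 and 78.8% (70.3 to 85.8) of 118. Of all possible fragments of that length in Rn7sk, 20.8% begin with T, so the share was above that of the RNA's own base composition inside the gene too. At 15 to 23 nt, T was the first base in 24.6% (17.6 to 32.8) inside and 32.8% (21.3 to 46.0) outside. Sequences outside the gene also more often mapped to 1 position (81.4%, 75.5 to 86.4, against 16.5%, 12.5 to 21.2) and were more often of 24 to 33 nt (71.2%, 64.6 to 77.1, against 55.1%, 49.3 to 60.8). Of the mRNA-annotated sequences in the same list, 83.6% were of 24 to 33 nt, and 78.4% of these began with T. The T share of 7SK sequences outside Rn7sk thus had that of mRNA inside its interval, while their share of 24 to 33 nt lay below it.

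Many of them came from a single 7SK-like gene. Gm23098 (chr6:127849221-127849519, plus strand) is annotated as a noncoding RNA gene of 299 nt and shares 73.1% of 93 aligned columns with positions 142 to 233 of Rn7sk. It overlaps no other gene of the annotation, and was picked because it held most 7SK sequences outside Rn7sk, 58 of 214. In all, 77 sequences of the list lay in it on the sense strand and 0 on the antisense strand, and 76 of them mapped to 1 position. The other 19 were annotated MIR, an old SINE, and started at position 238 or later, so 2 names shared this gene. It is shown here with each base at which at least 1 sequence started in capitals.
Gm23098: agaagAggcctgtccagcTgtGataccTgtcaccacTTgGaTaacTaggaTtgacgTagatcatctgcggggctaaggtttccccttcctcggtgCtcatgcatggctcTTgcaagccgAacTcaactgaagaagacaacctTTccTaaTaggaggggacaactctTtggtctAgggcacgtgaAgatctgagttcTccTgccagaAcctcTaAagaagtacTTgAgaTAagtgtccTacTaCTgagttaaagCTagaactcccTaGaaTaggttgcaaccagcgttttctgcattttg

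Of 42 capitals in Gm23098, 28 are T, although T makes up 26.4% of its bases. Of its 70 sequences of 24 to 33 nt, 58 began with T (82.9%, 72.0 to 90.8). Their lengths ran from 19 to 32 nt with a median of 28, longer than the median of 25 in Rn7sk. The commonest 5′ end, at position 110, was used by 7 sequences. A second 7SK-like gene, Gm23833 (chr17:12770631-12770882, plus strand), which lies within the span of the noncoding gene Airn on the same strand, held 15 sequences on the sense strand and 0 on the antisense strand, of which 13 began with T. The preference did not rest on Gm23098 alone. Among the 157 sequences in neither Rn7sk nor Gm23098, 83 of the 99 of 24 to 33 nt began with T (83.8%, 75.1 to 90.5).

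**Figure D3:**
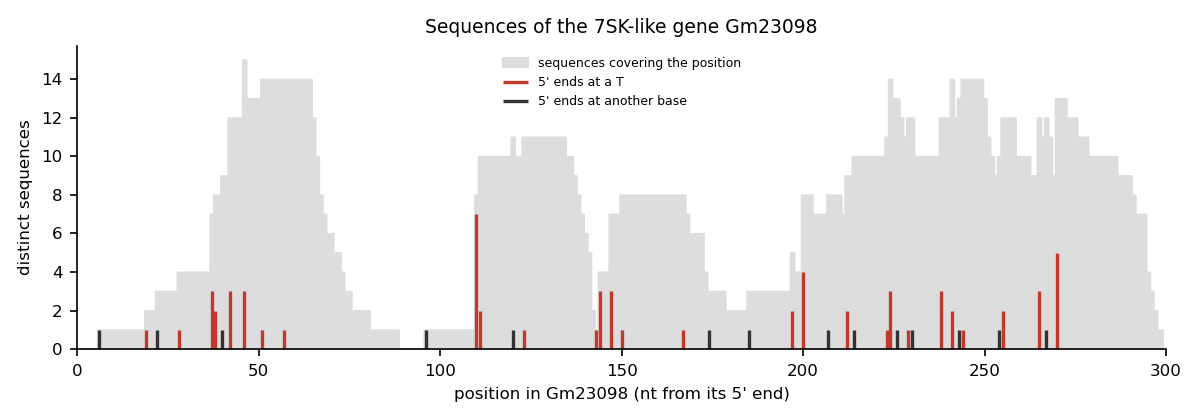
Distinct sequences along Gm23098 (x axis, nt from its 5′ end): the grey area is the number covering each position and the lines are the number with their 5′ end there (y axis), red at a T and black at another base. Of 42 positions used, 28 are red, and the tallest line is 7 at position 110.

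BC1 sequences were mostly outside Bc1. The 33 sense sequences of Bc1 left positions 37 to 44, 81 to 121 and 156 to 168 without any sequence, and 25 of them lay within the first 75 bases, the part derived from the transfer RNA. The most used 5′ end was position 1, with 5 sequences of 21 to 27 nt, and T was first in 2 of the 25. Those 25 mapped to 58 to 577 positions, with a median of 269. Sequences from the part of the RNA past its A-rich middle, which is not shared with ID SINEs, were few. From position 101 on, the list held 5 sense sequences, of which 2 mapped to 1 position, and 3 antisense sequences, all mapping to 1 position. These last 5 are the BC1 sequences that can be tied to Bc1 itself.

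The 1438 BC1 sequences that were not in Bc1 on the sense strand had another make-up. T was first in 788 of 1056 of 24 to 33 nt (74.6%, 71.9 to 77.2), against 3 of 12 (25.0%, 5.49 to 57.2) in the gene, and in 44.6% (39.5 to 49.8) of those of 15 to 23 nt. With each 5′ end counted once the first share was 69.9% (66.3 to 73.3). They mapped to 1 position in 81.4% (79.3 to 83.4). For ID-annotated sequences, the T share and the map share lay inside the intervals of all these BC1 sequences, with 76.5% T first at 24 to 33 nt (75.6 to 77.3) and 82.7% (82.0 to 83.4) mapping to 1 position. The T share of B1-annotated sequences, 74.5% (74.2 to 74.7), lay inside as well, but their map share, 60.7% (60.4 to 60.9), did not. Of all BC1 sequences, 17.6% (15.7 to 19.7) held a stretch of 15 bases found in ID sequences on the same strand and 9.31% (7.88 to 10.9) one found in B1 sequences. In the reverse complement of ID and B1 sequences the shares were 15.2% (13.4 to 17.1) and 2.72% (1.95 to 3.68). Of the 1024 7SL sequences, 0 held an ID stretch on the same strand and 1 in the reverse complement. The ID sequences include 3 named ID4 that lie in Bc1 itself, within positions 14 to 30.

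The sequences outside Bc1 fell into many groups, a few of them large. Those that mapped to 1 position and matched neither strand of Bc1, 1168 in all, were joined into runs wherever they shared 15 bases. This gave 372 runs, 272 of them of a single sequence. In contrast, 11 runs of 10 or more sequences held 632 of them (54.1%), and the largest 2 held 210 and 172 (32.7% together). A run need not be a single place in the genome. In the seventh run 18 of 27 sequences, and in the ninth 11 of 12, did not merge into 1 stretch by overlap. In each run described here and below, 0 were left out. The largest run was 101 nt long, with 57 different 5′ ends and T first in 138 of its 210 sequences (65.7%, 58.9 to 72.1). It aligned to Bc1 in the same strand, with 70.9% identity over 86 columns. It shared 15-base stretches with 35 sequences annotated B1F1 on the same strand and with 8 annotated ID_B1 on the opposite strand. Its place in the genome was not determined, because no genome was used, and its sequence is not printed.

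The second run, of 172 sequences over 102 nt, was antisense to Bc1, to positions 2 to 57 of which its opposite strand aligned with 82.1% identity over 56 columns. T was first in 126 (73.3%, 65.98 to 79.7). It shared 15-base stretches on the same strand with 57 sequences annotated to NM_029911, the mRNA of the potassium channel gene Kcnk10 (chr12:98429437-98578310, minus strand). No Kcnk10 transcript was among those that held at least 5 BC1 sequences, and the place of the run in the genome was not determined, so its sequence is not printed. T is the base at 26 of its 50 start positions.

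The next runs were of other kinds. The third, of 70 sequences, shared stretches on the same strand with 40 sequences annotated tRNA-Ala-GCY_, a name of alanine transfer RNA, the kind of RNA from which BC1 arose. Its opposite strand aligned to positions 44 to 60 of Bc1, with 88.2% identity over only 17 columns. The place of this run in the genome was not determined. The fourth, of 50 sequences with T first in 40, lay in an mRNA. All 50 and 5 more BC1 sequences matched the 3′ UTR of Tacc1, a centrosomal coiled-coil gene, over 132 nt (chr8:25157278-25157409, minus strand, as the mRNA). On the opposite strand of this run were 49 sequences annotated MIR, of which 30 began with T (61.2%, 46.2 to 74.8). Of the 23 5′ ends of 24 to 33 nt in the run, 0 had a partner on the opposite strand at an overlap of 10 nt, the overlap of piRNA pairs made by mutual slicing, or at any overlap from 11 to 20 nt. Genes and runs outside the RNA genes were picked after their values were seen.

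**Figure D4:**
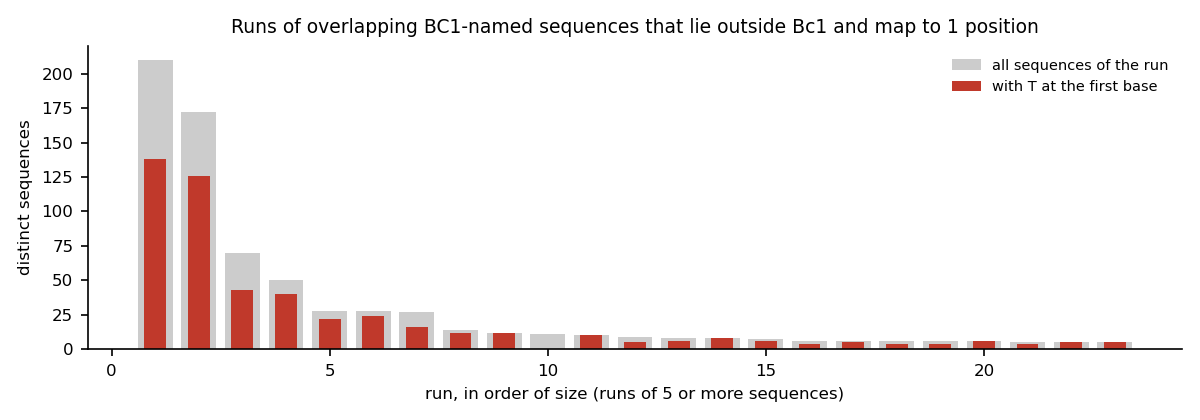
Number of distinct sequences (y axis) in each of the 23 largest runs of overlapping BC1-named sequences that lie outside Bc1 and map to 1 position (x axis, in order of size); grey bars count all and red bars those with T first. The first 2 runs hold 210 and 172 sequences and the rest 70 or fewer; in all but the tenth, with 0 of 11, more than 50% of the bar is red.

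Over all BC1 sequences of 24 to 33 nt that were not in Bc1 on the sense strand, partners at 10 nt were more frequent than at other overlaps. Of 687 different 5′ ends, 35 had a partner at 10 nt (5.09%), against 8 to 27 at overlaps from 11 to 20 nt, with a mean of 16.1. Partners were found by sequence alone, so a pair need not lie at the same place in the genome. Whether such pairs arise by mutual slicing was not tested. A was the tenth base in 26.6% (23.96 to 29.4) of BC1 sequences of 24 to 33 nt, compared with 29.5% (28.6 to 30.5) in ID and 40.1% (39.8 to 40.3) in B1 sequences. For 7SK the same count was 0 of 119 at every overlap from 10 to 20 nt, and for 7SL 1 of 104 at 10 nt against 0 to 5 at the others.

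The first base of the sequences that lay in the RNA genes was compared with that of all possible fragments of the same genes. At 24 to 33 nt, T was first in 32.03% (24.7 to 40.04) of the HY1 sequences in Rny1, where 33.6% of the possible fragments begin with T. HY3 had 41.3% (33.8 to 49.0) in Rny3 against 35.6% of the possible fragments. In both Y RNAs the share of the possible fragments thus lay inside the interval. 7SL had 25.2% (21.4 to 29.4) against 17.8%, or 21.8% (16.2 to 28.3) with each 5′ end counted once, and 7SK had 47.3% against 20.8%. The values of other structural RNAs in the list, each over all sequences of its class, were 31.1% for ribosomal RNA, 31.6% for transfer RNA, 33.4% for nucleolar RNA and 56.5% for spliceosomal RNA. The 7SK sequences in their gene, a part of those of the name, lay between the last 2 of these. All 7SK sequences, the like measure, had 64.4% (58.9 to 69.6), above the value of spliceosomal RNA. Without an exact sense match to their gene, 7SL sequences had 39.2% (30.6 to 48.3) and HY1 sequences 42.1% (26.3 to 59.2), both below the 71.2% of repeat sequences. Both groups include sequences close to the gene, so they are not all from elsewhere. With 1 mismatch allowed, 884 of 1024 7SL and 360 of 396 HY1 sequences matched the sense strand of their gene. At all lengths, 36 of the 7SL sequences only ran past its annotated end.

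**Figure D5:**
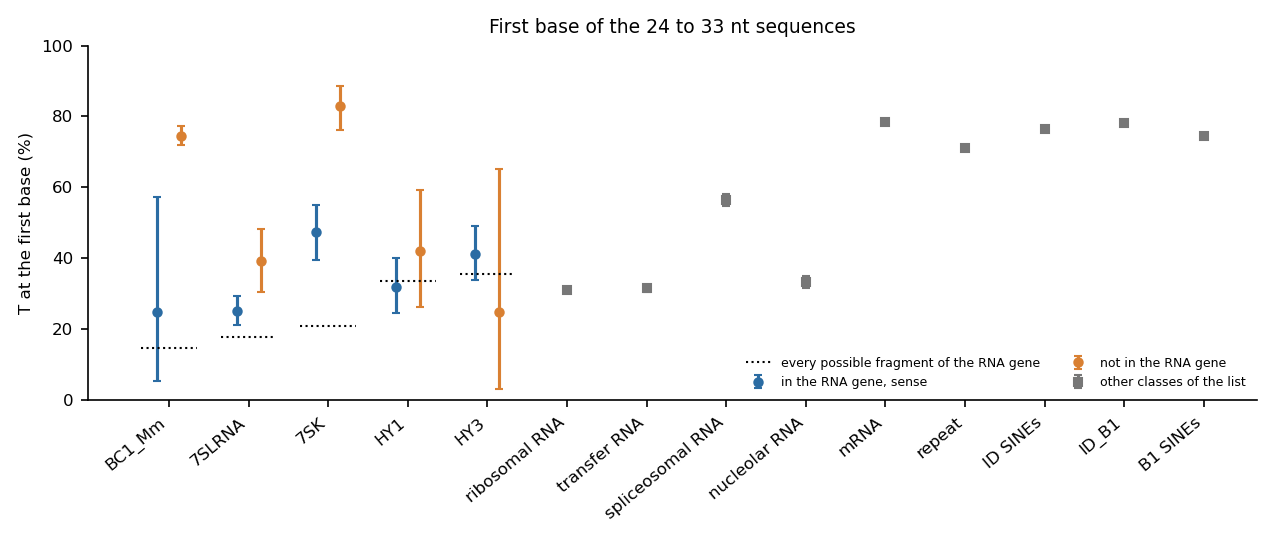
Share of sequences of 24 to 33 nt with T at the first base in percent (y axis) for each name, in blue with an exact match inside the RNA gene on the sense strand and in orange all others, and for other classes of the list in grey. Bars are exact 95% binomial intervals and dotted lines the share among all possible fragments of the gene. BC1 and 7SK outside their genes, at 74.6% and 83.0%, stand above 71.2%, the value of repeats, and the intervals of the Y RNAs in their genes include their dotted lines.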

How the data were processed

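Small RNA of 19 to 33 nt from mouse testes was ligated to linkers with T4 RNA ligase and amplified by PCR, per the labels. The authors deposited 1 pooled table of 3 columns: sequence, a map number and a final annotation. The map number is read here, from its column name, as the number of genomic positions; its unit is not stated. Aligner, build, order of annotation and read numbers are not given in the sources used here. The names, genes and lists were chosen with earlier results of these data known. Sequences were matched exactly and in full to either strand of GENCODE M21 genes and transcripts (GRCm38); introns were not searched. B1 means annotations starting with B1_, B1F or PB1, and ID means ID or ID with a digit. Runs join sequences that share 15 bases. Partners were sought among the first 20 nt of 5′ ends, 10 bases being compared at each overlap. Alignments were local (match 2, mismatch -3, gap -4). Every name found is given, and base, length and position values are given for names with at least 50 sequences. For each RNA the 5′ end with most sense sequences is named. Alternatives were other length ranges, 1 mismatch, 1 mapped position, each 5′ end (first 15 nt) once and stretches of 18 nt. The matching functions were tested on simulated data. Python 3.11.15, pandas 2.3.3, NumPy 2.4.6 and SciPy 1.17.1 were used.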

Additional observations from a re-analysis of the deposited data

How the results depend on the processing

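The results were recomputed under each alternative; a share counts as moved when it left the 95% interval of its main value, and a number of sequences when it changed over 1.5 times. Of 81 recomputed values, 44 stayed and 37 moved. Counting each 5′ end once left 943 sequences of BC1, 345 of 7SL, 342 of 7SK, 92 of HY1 and 73 of HY3. Sequences that map to 1 position numbered 125 for 7SL, 225 for 7SK and 250 for HY1. The share with T first over all lengths was 65.5% for BC1, and 71.1% at 19 to 33 nt, 74.1% at 24 to 33 nt, 59.9% with each 5′ end once and 72.1% at 1 mapped position. That of 7SK was 50%, and 56.3%, 64.4% and 70.7% at 19 to 33 nt, 24 to 33 nt and 1 mapped position. That of 7SL was 24.8%, and 28.1% at 24 to 33 nt and 40.8% at 1 mapped position, and that of HY3 was 34.8%, and 40.6% at 24 to 33 nt. With 25 to 32 nt in place of 24 to 33 nt, the length share was 67.1% for BC1, 49.6% for 7SL, 57.1% for 7SK, 40.9% for HY1 and 48.1% for HY3. At 1 mapped position the 24 to 33 nt share was 84.6% for BC1, 80.0% for 7SL, 81.3% for 7SK and 58.0% for HY1. With 1 mismatch allowed the matched share was 6.80% for BC1, 86.7% for 7SL and 90.9% for HY1, the sense share of 7SL was 99.5%, and 82.3% of the BC1 sense sequences started in the first 40 nt. Stretches of 18 nt left 10.7% of 7SL sequences shared with B1 and 5.89% of BC1 sequences shared with ID. Alternatives chosen after the data were seen gave 85.0% matched with the longer 7SL gene, 66.1% of 7SK matched without Gm23098, and 12.3% of 7SL sequences starting in the first 40 nt under any name. Without its largest 2 runs BC1 had T first in 64.2%, and 7SK without Gm23098 in 46.1%, both within the main intervals. The cause of these moves was not tested. BC1 had the highest T-first share of the 5 names under every alternative run on all of them, and 7SL the lowest except at 1 mapped position, where HY1 had 32.8%. With 1 mismatch the order of matched shares was that of the main values. No paired analysis was possible because the list carries no library and each group has 1 library. Depth per library is unknown, so no statement rests on the number of reads, and a sequence read once counts like one read often.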

Other observations

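Further genes that held BC1 or 7SL sequences were picked after their values were seen. A 7SL-like noncoding RNA gene, Gm23153 (chr1:190482845-190483157, minus strand), held 9 sense sequences that were not in the 7SL gene. All 9 began with T and mapped to 1 position, whereas T was first in 22.7% (19.9 to 25.7) of the 834 sequences in the 7SL gene. In the other 4 7SL-like genes with at least 5 such sequences, T was first in 2 of 8, 2 of 7, 1 of 5 and 0 of 5. Transcripts of Alkbh5, an RNA demethylase gene, and of Wdr31 each held 7 BC1 sequences on the sense strand, and in both all 7 began with T and mapped to 1 position. Other genes also had at least 5 BC1 sequences on the sense strand of their transcripts, all mapping to 1 position. In these, T was first in 7 of 12 in Ccdc157, 5 of 7 in Dcbld2, 2 of 6 in H13 and 5 of 5 in Nhlrc2. Of the 1429 BC1 sequences that matched neither strand of Bc1, 306 (21.4%, 19.3 to 23.6) matched a transcript of any gene, against 144 of 214 for 7SK (67.3%, 60.6 to 73.5).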
